A study of Mus musculus with 24 samples.

Results

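The cytosolic ribosomal protein genes were followed in the brains of untreated mice. They were taken as every gene whose symbol in the platform annotation is Rpl or Rps followed by a number, with or without letters, and the Rps6k kinases were left out. A gene was included when it had a probe detected above the negative controls (detection p under 0.05) on at least 6 of 24 arrays, and it was represented by its brightest such probe. Of 56 symbols that match by name, 50 met this rule, among 11439 named genes with a kept probe. They comprised 29 genes of the large subunit and 21 of the small subunit, and 49 of the 50 were detected on all 24 arrays. The other 6 genes (Rpl14, Rpl17, Rpl39l, Rpl6, Rps20 and Rps23) had no probe detected on more than 1 array and were not tested.

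The animals were naive SJL/JOrlCrl mice of 10 weeks, an inbred strain used in work on autoimmune inflammation of the brain, and no group carried a transgene or a treatment. Frontal cortex and cerebellum came from each of 12 littermate animals, 6 of each sex, which gave 4 groups of 6 Illumina MouseWG-6 v2.0 bead arrays. Each array measured RNA amplified from 100 ng of total RNA, and levels are given as log2 intensity after background correction and quantile normalization. The series was designed to find transcripts that set the female cerebellum apart.

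Ribosomal proteins form, with the ribosomal RNAs, the large and small subunits that translate messenger RNA. The small subunit reads the codons, while the large subunit joins amino acids and passes the growing chain through its exit tunnel. Most of these genes are transcribed strongly in every cell type and share features of their promoters, among them a pyrimidine tract at the start of transcription that places their messengers under control of the mTOR kinase. In the brain they are present in neuronal cell bodies, in dendrites and in glia.

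Most ribosomal protein genes that changed with tissue were lower in the cerebellum than in the frontal cortex. With the sexes averaged, 29 of 50 genes were lower, 3 were higher and 18 did not pass the threshold (limma, Benjamini-Hochberg adjusted p under 0.05 across all kept probes). Of all named genes, 70.5% passed in either direction, 32.9% were lower and 37.6% were higher, against 64%, 58% and 6% of the ribosomal protein genes. The median difference, cerebellum minus frontal cortex, was -0.18 log2 for the ribosomal protein genes and 0.03 for all named genes. A negative fitted difference was found for 40 of 50. The differences were small: their median size among the genes that passed was 0.25, against 0.49 for all named genes that passed, and 5 genes (10%) exceeded 0.5 in size against 34.6% of named genes.

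**Figure D1:**
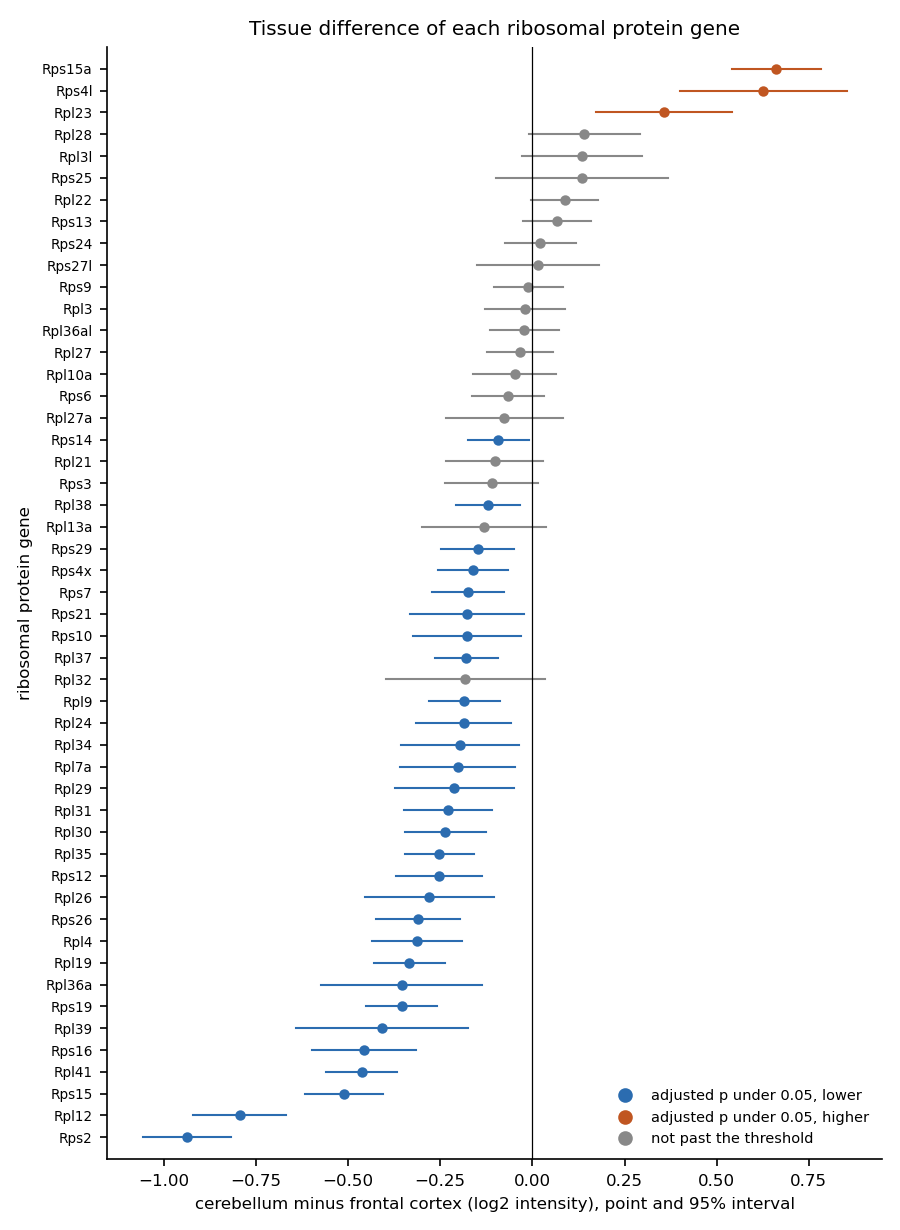
Fitted tissue difference of the 50 ribosomal protein genes (horizontal axis, cerebellum minus frontal cortex in log2 intensity; vertical axis, genes ordered by it). Points are estimates from 24 arrays and lines their 95% intervals; the 29 genes lower past the threshold are blue, the 3 higher are orange and the 18 others grey, and most points lie left of 0.

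**Figure D2:**
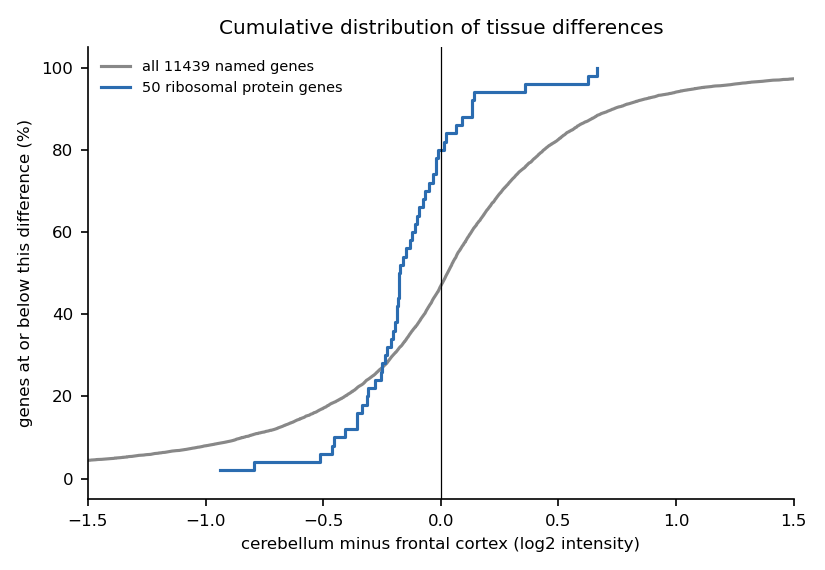
Cumulative share of genes (vertical axis, percent) at or below each tissue difference (horizontal axis, log2 intensity, cut at -1.5 and 1.5), for the 50 ribosomal protein genes and all 11439 named genes. The ribosomal curve rises more steeply and reaches 80% at a difference of 0, where the curve of all named genes stands at 46.9%; at the far left it lies below that curve.

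The largest fall was that of a small subunit gene. Rps2, a protein near the site where messenger RNA enters the small subunit, lay between 13.58 and 14.01 (median 13.73) on the 12 frontal cortex arrays. In the cerebellum it lay between 12.72 and 12.98 (median 12.85). All 12 cerebellum arrays were below all 12 frontal cortex arrays, and Rps2 was lower in the cerebellum of 12 of 12 animals with differences in the single animals from -1.25 to -0.70. The fitted difference was -0.94 ± 0.06 (SE; adjusted p = 5.87e-14, limma), a 1.92-fold higher level in frontal cortex. The other kept probe of Rps2 gave -1.04.

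Rps15, a protein of the head of the small subunit, ranged from 11.39 to 11.89 (median 11.55) in frontal cortex and from 10.92 to 11.16 (median 11.09) in cerebellum. The tissues did not overlap, and the difference was -0.51 ± 0.05 (SE; adjusted p = 1.19e-09, limma). Rps16, also of the head, ranged from 10.64 to 11.13 (median 10.89) in frontal cortex and from 10.02 to 10.72 (median 10.45) in cerebellum. Its tissues overlapped at the margin, with 11 of 12 animals lower in cerebellum and a difference of -0.46 ± 0.07 (SE; adjusted p = 1.51e-06, limma). Rps19, a gene mutated in the human anaemia named after Diamond and Blackfan, differed by -0.36 ± 0.05 (SE) and was lower in 12 of 12 animals. Rps26, which lies where messenger RNA leaves the small subunit, differed by -0.31 ± 0.06 (SE) and was also lower in 12 of 12.

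In the large subunit, Rpl12, which forms the base of the stalk that recruits elongation factors, changed most. Its level ranged from 11.20 to 11.51 (median 11.38) in frontal cortex and from 10.20 to 10.80 (median 10.57) in cerebellum. The tissues were fully apart, and the difference was -0.79 ± 0.06 (SE; adjusted p = 7.29e-12, limma), a 1.73-fold higher level in frontal cortex. Rpl41, a very short peptide that bridges the subunits, ranged from 14.37 to 14.57 (median 14.48) in frontal cortex and from 13.80 to 14.19 (median 14.04) in cerebellum. It too separated the tissues, with a difference of -0.46 ± 0.05 (SE; adjusted p = 1.57e-09, limma).

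Rpl19, which has a helix reaching across to the small subunit, ranged from 9.66 to 9.95 (median 9.82) in frontal cortex and from 9.35 to 9.66 (median 9.44) in cerebellum. It was the fifth gene whose tissues did not overlap, though only narrowly: the highest cerebellum array was at 9.656 and the lowest frontal cortex array at 9.661. Its difference was -0.33 ± 0.05 (SE; adjusted p = 4.83e-07, limma). Rpl4, which lines the exit tunnel, differed by -0.31 ± 0.06 (SE) and was lower in 12 of 12 animals. Rpl39 in the exit tunnel, Rpl36a near the site where transfer RNA leaves and Rpl26 near the tunnel's end, also of the large subunit, differed by -0.41, -0.35 and -0.28. Their arrays overlapped widely between tissues: Rpl39 ran from 11.06 to 11.86 in frontal cortex and from 10.33 to 11.47 in cerebellum, and in single animals its difference ran from -1.52 to 0.41.

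The genes higher in the cerebellum were Rps15a, Rps4l and Rpl23. Rps15a, a protein of the body of the small subunit, ranged from 9.33 to 9.70 (median 9.54) in frontal cortex and from 9.86 to 10.40 (median 10.22) in cerebellum. All 12 cerebellum arrays were above all 12 frontal cortex arrays, and the difference was 0.66 ± 0.06 (SE; adjusted p = 1.13e-10, limma), a 1.58-fold higher level in cerebellum. Rps4l, a relative of the X-linked Rps4x, ranged from 6.30 to 7.69 (median 7.03) in frontal cortex and from 7.02 to 7.97 (median 7.56) in cerebellum. It is counted with the small subunit by its symbol, though its probe is annotated to a RefSeq record of the non-coding type. Its tissues overlapped, 11 of 12 animals were higher in cerebellum, and the difference was 0.63 ± 0.11 (SE; adjusted p = 1.51e-05, limma). Rps4x itself differed by -0.16 ± 0.05 (SE; adjusted p = 0.003, limma), a gene named after its value was seen. Rpl23, which lies between the subunits, is the third, and its probes disagreed in sign.

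**Figure D3:**
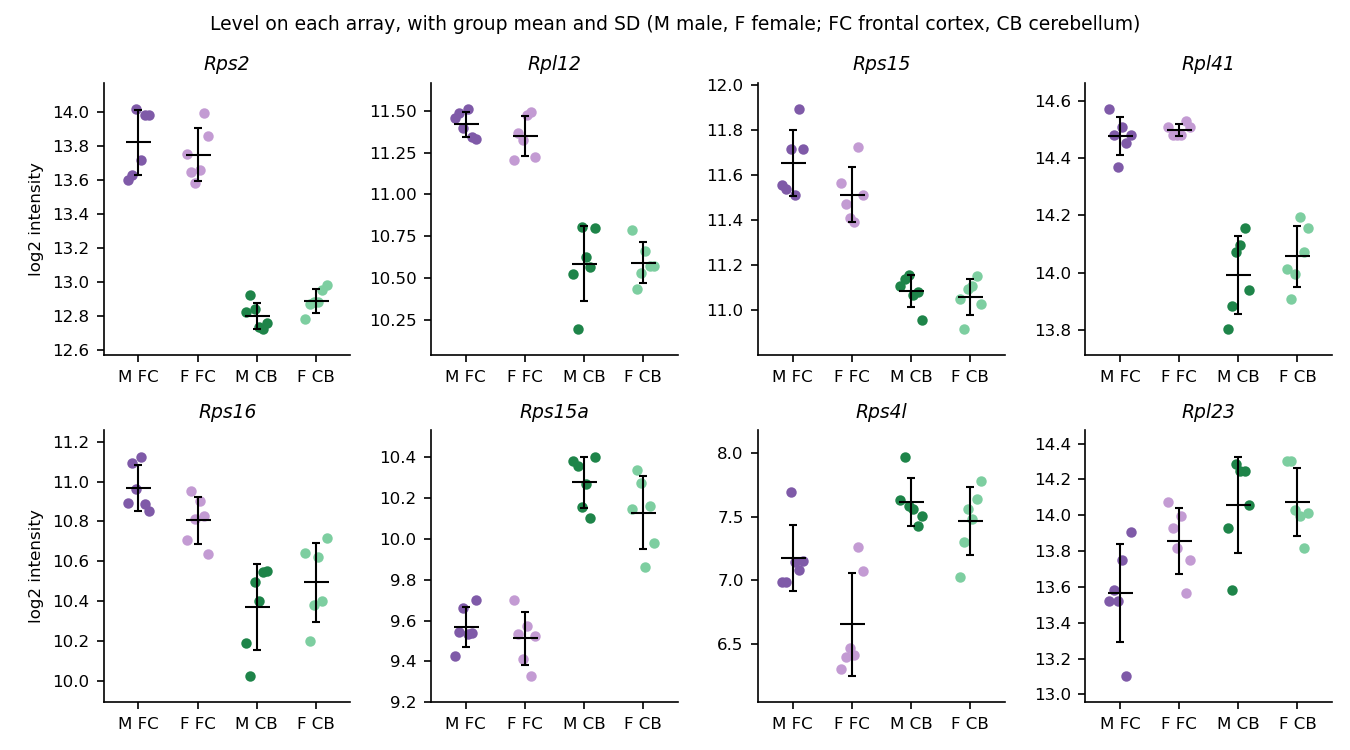
Level of 8 ribosomal protein genes (vertical axes, log2 intensity, each panel with its own range) on the 6 arrays of each group (horizontal axis); points are arrays, horizontal marks are group means and bars 1 SD. Rps2, Rpl12, Rps15 and Rpl41 lie lower in every cerebellum array than in any frontal cortex array, Rps15a lies higher, and Rps16, Rps4l and Rpl23 overlap.

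Levels of the tissues did not overlap for 5 lower genes (Rps2, Rpl12, Rps15, Rpl41 and, narrowly, Rpl19) and 1 higher gene (Rps15a). The same separation was found for 15.5% of all named genes in the lower and 15.8% in the higher direction. The fall was in 12 of 12 animals for 14 genes, and how many of all named genes fell in every animal was not counted. Beyond the 12 most reduced genes, the other 17 that fell differed by -0.25 (Rps12, a small subunit gene, lower in 11 of 12 animals) to -0.09 (Rps14, also of the small subunit, lower in 10 of 12; adjusted p = 0.046, limma), both named after their values were seen. By subunit, 17 of 29 large subunit genes were lower and 1 higher, with a median of -0.18, and 12 of 21 small subunit genes were lower and 2 higher, with a median of -0.15. The 18 genes that did not pass lay between Rpl32 at -0.18 (adjusted p = 0.13) and Rpl28 at 0.14 (adjusted p = 0.09), both named after their values were seen. The first is a large subunit gene whose levels ran from 10.52 to 11.61 in cerebellum and from 11.06 to 11.62 in frontal cortex, and 5 of 12 cerebellum arrays lay below the lowest frontal cortex array. Because each tissue is a mixture of cells, fewer cells rich in these transcripts and less RNA of the genes per cell cannot be told apart.

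Stretches of 150 bases before an annotated start of transcription are shown for the 5 most reduced genes and the 2 raised ones with a window, since these genes moved in opposite directions. They are taken from RefSeq on GRCm38.p6 (mouse genome), 5′ to 3′ on the strand of the gene, and capitals mark the motifs searched. Rps2 is at chr17:24719913-24720062, plus strand. Rpl12 is at chr2:32961562-32961711, plus strand, Rps15 at chr10:80292281-80292430, plus strand, Rpl41 at chr10:128549169-128549318, minus strand and Rps16 at chr7:28350539-28350688, plus strand. Of the raised genes, Rps15a is at chr7:118116148-118116297, minus strand and Rpl23 at chr11:97782440-97782589, minus strand.
Rps2: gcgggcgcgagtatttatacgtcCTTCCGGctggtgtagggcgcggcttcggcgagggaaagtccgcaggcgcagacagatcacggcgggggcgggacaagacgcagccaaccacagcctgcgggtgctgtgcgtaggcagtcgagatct
Rpl12: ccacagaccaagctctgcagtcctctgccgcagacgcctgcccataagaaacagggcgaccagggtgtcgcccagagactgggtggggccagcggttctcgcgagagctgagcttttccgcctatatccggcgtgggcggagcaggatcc
Rps15: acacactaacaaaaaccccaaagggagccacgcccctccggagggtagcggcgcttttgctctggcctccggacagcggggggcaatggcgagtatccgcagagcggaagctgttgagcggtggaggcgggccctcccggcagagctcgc
Rpl41: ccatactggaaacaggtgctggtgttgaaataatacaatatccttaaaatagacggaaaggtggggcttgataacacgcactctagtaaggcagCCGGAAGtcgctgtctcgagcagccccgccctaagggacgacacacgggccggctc
Rps16: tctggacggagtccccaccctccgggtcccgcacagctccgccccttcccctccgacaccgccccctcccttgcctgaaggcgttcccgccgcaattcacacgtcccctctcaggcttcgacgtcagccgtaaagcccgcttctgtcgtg
Rps15a: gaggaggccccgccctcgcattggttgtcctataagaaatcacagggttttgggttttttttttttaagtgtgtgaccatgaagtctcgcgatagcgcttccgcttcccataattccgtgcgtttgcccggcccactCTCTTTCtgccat
Rpl23: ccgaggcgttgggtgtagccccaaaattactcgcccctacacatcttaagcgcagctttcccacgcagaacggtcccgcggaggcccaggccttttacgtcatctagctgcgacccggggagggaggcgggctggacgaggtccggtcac
The window of Rps2 holds the Ets-type motif on the reverse strand and that of Rpl41 on the gene's own strand. The window of Rps15a holds the letters of the pyrimidine tract shortly before its annotated start, outside the annotated transcript. The windows of Rpl12, Rps15, Rps16 and Rpl23 hold no match over these bases. Each stretch ends before the annotated start, so a tract at the start of transcription cannot be seen in any of them.

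Promoter windows from 250 bases before to 50 bases after the start were found for 42 of the 50 genes, in 52 windows. The Ets-type motif CCGGAAG, searched on both strands, was in 19 of 52 windows (36.5%), against 8.86% of the 32851 windows of all genes. The pyrimidine tract CTCTTTC, searched on the transcript's strand only, was in 13.5% against 3.99%, and the TATA motif TATAAA on the same strand in 5.77% against 8.32%. Each motif was searched on its own, so that matches of different motifs may overlap. The Ets-type motif was in a window of 14 of 25 genes lower in cerebellum and of 4 of the other 17 genes. These are counts of letters only, chosen after the differences were known, and no test was made of them.

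Rps29, Rpl41 and Rpl38, with mean raw signals of 20866, 20062 and 19768, were the 3 genes with the brightest probes, and Rpl3l, Rpl21 and Rps4l, with mean raw signals of 83.6, 147 and 203, had the dimmest. A brighter probe does not mean more transcript, since probes bind with different strength. Rps29 and Rpl38 differed by -0.15 (adjusted p = 0.008, limma) and -0.12 (adjusted p = 0.013, limma), and each was lower in 12 of 12 animals. Rpl3l, a relative of Rpl3 known from muscle, differed by 0.13 (adjusted p = 0.136, limma). Rpl21 differed by -0.10 (adjusted p = 0.162, limma), with 8 of 12 animals lower in cerebellum.

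A total of 15 genes had more than 1 kept probe. For 6 of them (Rpl29, Rpl31, Rpl38, Rps12, Rps19 and Rps2) every kept probe passed with 1 sign, all lower in cerebellum. The probes of Rpl23 and Rps24 that passed had opposite signs. The brightest Rpl23 probe ranged from 13.10 to 14.07 in frontal cortex and from 13.58 to 14.30 in cerebellum, with a difference of 0.36 ± 0.09 (SE; adjusted p = 0.001, limma). It was higher in cerebellum in 10 of 12 animals and equal in the other 2. The next was 0.00 ± 0.07 (SE; adjusted p = 0.956, limma), and the dimmest kept probe was -0.40 ± 0.06 (SE; adjusted p = 4.05e-07, limma). The mean over the 3 probes gave -0.012 (adjusted p = 0.863, limma), and the brightest probe with each array scaled to its median alone gave 0.09 (adjusted p = 0.436, limma). For Rps24, whose transcripts differ in their last exons, the brightest probe was 0.02 ± 0.05 (SE), while dimmer probes annotated to other transcripts gave -0.21 ± 0.06 and 0.67 ± 0.13 (SE). Over all 71 kept probes of the 50 genes, several of which share a gene, 40 were lower and 5 higher. The shares of named genes, 32.9% lower and 37.6% higher, count 1 probe per gene and are not the same measure. Ribosomal protein genes have many near-identical processed copies in the genome, and which copies a probe binds was not tested.

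The tissue difference was also fitted within each sex. In females 15 genes were lower and 2 higher, against 27.4% and 33.1% of named genes. In males 23 were lower and 3 higher, against 29.1% and 31.5% of named genes. The 15 genes lower in females were also lower past the threshold in males, and Rps4l and Rps15a were higher in both. The interaction of sex and tissue passed for 0 of 50 genes in limma (0.0787% of named genes), and 3 had an unadjusted p under 0.05, as did 6.80% of named genes. Rps2 fell by 0.86 log2 in females and by 1.02 in males, and the interaction had an adjusted p of 0.853.

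Between females and males, 0 of 50 ribosomal protein genes passed in cerebellum (0.114% of named genes passed) and 0 of 50 passed in frontal cortex (0.157%). At an unadjusted p under 0.05, 0 genes were found in cerebellum and 5 in frontal cortex, against 5.46% and 9.07% of named genes. In cerebellum the fitted differences, female minus male, ran from -0.15 to 0.13. In frontal cortex they were negative for 42 of 50 genes, with a median of -0.07, and negative for 52.8% of named genes. Many of the genes moved together between arrays, so these signs are not 50 separate observations. The sexes were also not balanced in frontal cortex over the runs of arrays described below, whose part in these signs was not tested. Rps4l was lowest, with 7.17 ± 0.26 (SD, n = 6) in males and 6.65 ± 0.41 (SD, n = 6) in females (difference -0.52; adjusted p = 0.186, limma), and it passed when female frontal cortex replicate 5 was left out (-0.64; adjusted p = 0.044). The labels also mark the arrays with tags of unstated meaning, which form batches a and b, and the difference between these batches passed for 0 of 50 genes (0.184% of named genes), and 3 had an unadjusted p under 0.05, as did 11.1% of named genes.

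Another pattern followed the order of the arrays in the scanner table. Its 24 arrays were divided into 4 runs of 6 neighbouring columns, and whether a run is a physical chip is not stated in the sources used here. Each run holds both tissues and both sexes. With group means kept, 23 of 50 ribosomal protein genes (46%) differed between runs in a moderated F test (limma, adjusted p under 0.05), against 28.6% of named genes. With the animal as a block as well, 12 of 50 (24%) did, against 11% of named genes. This comparison was added after the data were seen. Of the 23, 15 were large subunit genes and 8 small subunit genes.

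The run accounted for a median of 50.8% of the variance within groups over the 50 genes and of 30.9% over all named genes, where 15% would follow from the degrees of freedom alone. The mean deviation of the 50 genes from the group mean was negative on all 6 arrays of run 3 (-0.14 to -0.03) and positive on all 6 of run 4 (0.02 to 0.08). The mean over the arrays of runs 1 to 4 was -0.02, 0.04, -0.07 and 0.05, so that run 2 lay near run 4. The 23 genes past the run test averaged -0.13 in run 3 and 0.11 in run 4, and the other 27 averaged -0.0065 and -0.0062. Both are descriptions, since that test chose both sets. The mean of the 27 joins genes of both directions and does not show that each was unchanged. Over all 50 genes, 30 were fitted higher in run 4 than in run 3 and 20 lower. Runs 1 to 4 had 18324 to 19927, 18127 to 19768, 18099 to 19058 and 19037 to 19486 detected probes. The part of detection in the run difference was not tested. The clearest genes, named after their values were seen, were Rpl39 and Rpl36a. Rpl39 deviated by -0.63 to -0.06 on the 6 arrays of run 3 and by 0.23 to 0.40 on those of run 4 (adjusted p = 2.43e-05, limma), and Rpl36a by -0.61 to -0.16 and by 0.20 to 0.33 (adjusted p = 7.71e-05, limma).

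Of the 23 genes, 19 were higher in run 4 than in run 3, and Rps2, Rps4l, Rps26 and Rpl21 went the other way. Rps2 deviated by -0.19 to -0.04 on the arrays of run 4 and by -0.01 to 0.16 on those of run 3. Tissue and run were partly tied, with 3 cerebellum arrays in run 1, 4 in run 2, 3 in run 3 and 2 in run 4. With the run as a block, 31 genes were lower in cerebellum and 4 higher, against 34.4% and 39% of named genes, and the median difference was -0.16. Within runs 1 to 4 the medians were -0.21, -0.12, -0.18 and -0.13, and within label batches a and b they were -0.18 and -0.14. Rps2 ran from -1.11 to -0.80 within runs, Rpl12 from -0.90 to -0.66 and Rps15a from 0.67 to 0.73. Rpl23 ran from 0.17 in run 3 to 0.52 in run 2, and it did not pass in run 3 alone (adjusted p = 0.612, limma) or in run 4 alone (adjusted p = 0.052, limma). Rps4l ran from 0.20 in run 1 to 0.91 in run 3, and Rps4l did not pass in run 1 alone (adjusted p = 0.339, limma) or in run 4 alone (adjusted p = 0.088, limma).

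**Figure D4:**
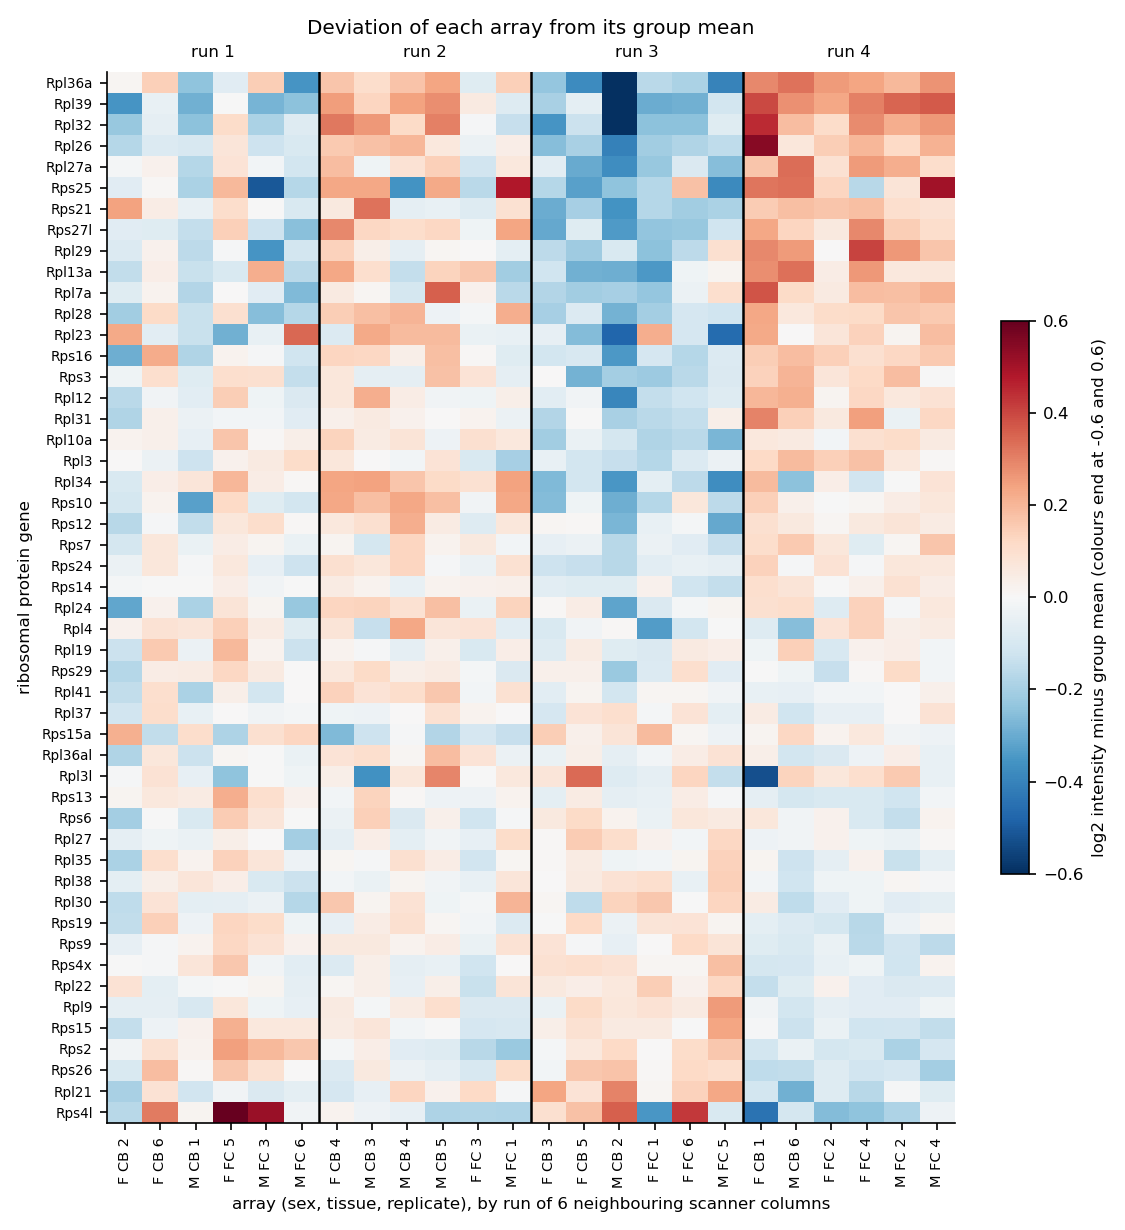
Deviation of each array from the mean of its group (colour, log2 intensity, blue low and red high, colours ending at -0.6 and 0.6) for the 50 genes (vertical axis, ordered by the fitted difference of run 4 and run 3) and the 24 arrays (horizontal axis, in 4 runs; M male, F female, FC frontal cortex, CB cerebellum). The fitted difference is above 0 for the upper 30 genes, which are mostly bluer in run 3 and redder in run 4, and below 0 for the lower 20, Rps4l and Rpl21 among them.

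The tissue difference was also visible before normalization. The 50 probes held 2.18% to 2.39% (median 2.29%) of the summed raw signal on the frontal cortex arrays and 1.77% to 2.03% (median 1.92%) on the cerebellum arrays, with no overlap between tissues. The median raw signal of the 50 probes ran from 3688 to 4727 in frontal cortex and from 2876 to 3397 in cerebellum. Bright probes in general differed too: the 95th percentile of the signal ran from 926 to 1239 in frontal cortex and from 846 to 1026 in cerebellum. Quantile normalization gives all arrays the same distribution, so such a difference is taken out. With each array scaled to its median alone, 42 ribosomal protein genes were lower and 2 higher, with a median of -0.41, while 40.1% of named genes were lower and 28.1% higher, with a median of -0.06.

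**Figure D5:**
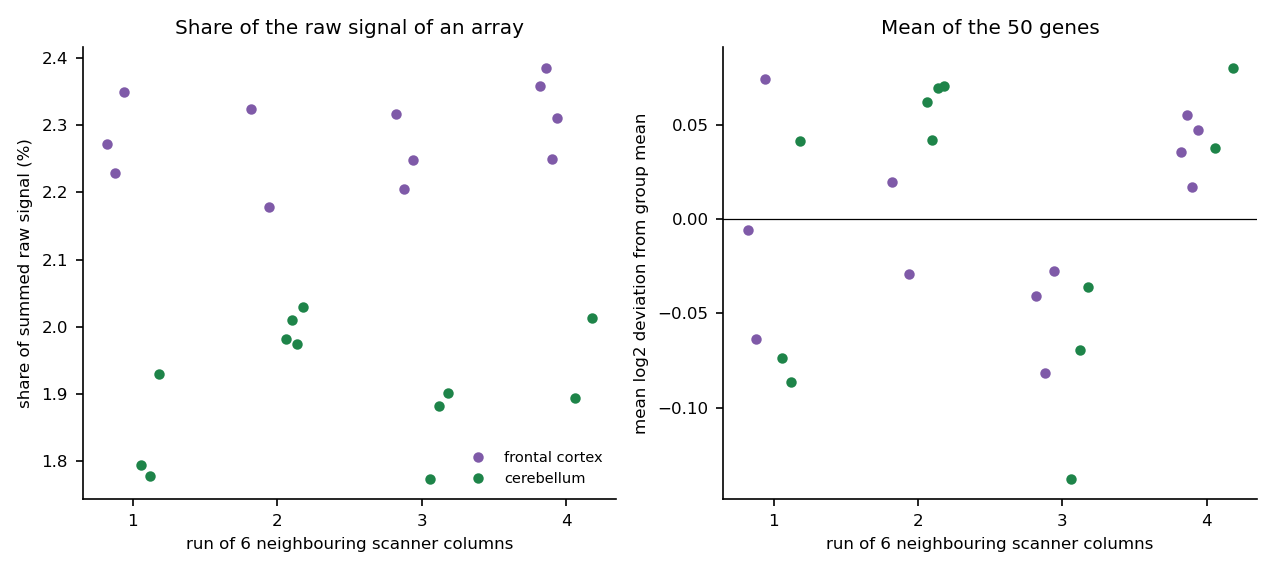
Left, share of the summed raw signal of an array held by the 50 probes (percent); right, mean log2 deviation of the 50 genes from their group mean; both by run of 6 neighbouring scanner columns, one point per array. On the left the frontal cortex arrays (2.18% to 2.39%) lie above the cerebellum arrays (1.77% to 2.03%) in each run; on the right run 3 lies below 0 and run 4 above.

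Other genes of the translation machinery did not follow a single direction. In the same fit 32.9% of all named genes were lower and 37.6% higher, which is the background for the counts of each list that follows. Of the ribosomal proteins named otherwise, 3 were measured. Rplp1, a protein of the stalk, was 15.06 ± 0.08 (SD, n = 12) in frontal cortex and 14.56 ± 0.09 in cerebellum (difference -0.50; adjusted p = 9.97e-11, limma), while Rplp0 (-0.15) and Rplp2 (-0.07) did not pass. Of 3 measured genes named after ribosomal proteins with a further suffix, Rps19bp1 was lower (-0.47) and Rpl7l1 (0.34) and Rsl24d1 (0.18) were higher. Of 73 mitochondrial ribosomal proteins, which serve the separate ribosome of that organelle, 27 were lower, 13 higher and 33 did not pass, with a median of -0.06. Mrpl45 (0.80) and Mrpl57 (0.62) were higher, and Mrps18a (-0.41) and Mrps17 (-0.40) were lower.

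Among 9 elongation factors and their regulators, 4 were higher and 4 lower. Eef2k, the kinase that inactivates elongation factor 2, was 6.62 ± 0.14 (SD, n = 12) in frontal cortex and 7.81 ± 0.13 in cerebellum (difference 1.19; adjusted p = 3.47e-16, limma). Eef1d was higher by 0.36, and Eif5a (-0.33) and Eef1b2 (-0.31) were lower. Of 25 initiation factors, 10 were higher, among them Eif2s2 (0.60), Eif5b (0.56) and Eif2b4 (0.49), and 6 were lower, among them the poly(A)-binding Pabpc4 (-0.51). The medians of these lists were 0.01 and 0.06.

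Of 29 factors of ribosome assembly, 9 were lower and 8 higher, with a median of -0.02. Tsr1 (-1.03), Rrp12 (-0.94) and Nhp2 (-0.83), which act in the making of the subunits and of ribosomal RNA, were lower, and Pes1 was higher (0.66). Of 16 genes of RNA polymerase I, which transcribes ribosomal RNA, and its factors, 7 were higher and 7 lower. The list includes subunits shared with other RNA polymerases, such as Polr1d and Polr2l. Polr1d (0.80) and Taf1c (0.55) were higher and Polr1e (-0.57) and Polr1a (-0.54) lower. Of 15 regulators of mTOR and of messengers with a pyrimidine tract, 6 were higher and 3 lower. Eif4ebp1, an inhibitor of translation that mTOR switches off, and Deptor, an inhibitor of mTOR, were lower (-1.38 and -1.35), while Rictor (0.66) and Mlst8 (0.59), both parts of mTOR complexes, were higher.

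Measured markers of the tissues moved as their labels say. Of 18, 12 and 14 listed markers of cerebellar granule cells, Purkinje cells and cortical neurons, 13, 6 and 11 were measured. All 13 measured markers of cerebellar granule cells and all 6 of Purkinje cells were higher in cerebellum, and all 11 of cortical neurons were lower there. Among them Gabra6, Neurod1, Ppp1r17 and Emx1 were detected on 12 arrays each and Grin2c on 11. Listed markers that were not measured could not count either way, so these counts are partly set by the rule for keeping probes. Pcp2, a Purkinje cell gene, was detected on 12 arrays, at 4.31 ± 0.07 (SD, n = 12) in frontal cortex and 12.93 ± 0.11 in cerebellum. All 11 microglial markers and 8 of 9 striatal markers were lower in cerebellum, and 5 of 6 choroid plexus and 5 of 6 red cell markers were higher. Astrocyte markers were higher for 7 and lower for 2 of 10, myelin markers for 7 and 4 of 13, and endothelial markers for 6 and 0 of 11. The mean level of the striatal markers ran from 6.32 to 8.63 over the frontal cortex arrays and that of the choroid plexus markers from 6.00 to 9.03 over the cerebellum arrays, against 5.56 to 5.81 and 4.63 to 5.63 in the other tissue. The part of any of these cell types in the ribosomal protein differences was not tested. Over kept probes, correlations of array pairs within a group lay between 0.983 and 0.995, and the highest between tissues was 0.934. Detected probes ran from 18099 to 19927 of 45281 per array. Within a group the SD of a ribosomal protein gene, 0.07 to 0.30 log2, was 1.36 to 5.45 times the error over beads.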

How the data were processed

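RNA of frontal cortex and cerebellum from 12 mice was hybridised to 24 bead arrays, and groups were taken from the sex and tissue in the labels. Per the file headers, the deposited scanner table gives a linear, unnormalized intensity per probe (the mean over its beads), the error over beads, the bead count and the p-value of detection against negative controls. The authors' deposited table holds linear intensity, quantile-normalized as its sorted columns show. Partek is named in the submitters' processing notes, with no role or version. The scanner software is not given in the sources used here.

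From the deposited intensity, log2 values were computed here by limma's neqc (limma 3.58.1, R 4.3.3; background from negative controls inferred through the detection p-value, quantile normalization, offset 16). Files were read with data.table (version 1.17.8), and sequences and figures made with Python 3.11.15, pandas 2.3.3, numpy 2.4.6 and matplotlib 3.10.9. Probes with detection p under 0.05 on at least 6 of 24 arrays were kept, 21113 of 45281. Of all probes 34885 carried 1 symbol, 18 several and 10378 none here. Means of the 4 groups were fitted to all 24 arrays with lmFit and eBayes (20 residual and 5.82 prior degrees of freedom), with Benjamini-Hochberg adjustment over kept probes at 0.05. All adjusted p are from limma and two-sided. The procedure was tested on simulated data. The number of arrays limits the precision.

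Both arrays of an animal share an animal label, so replicate numbers within a sex pair the tissues. The correlation of their deviations from group means ran from -0.30 to 0.24, over 0.1 in 5 of 12 pairs, and with the run removed from 0.02 to 0.33. No animal had both arrays in 1 run. Arrays are separate animals within a group, and littermates are not told apart. The 2 label batches are tags whose meaning is not stated, with 2 arrays of batch a and 4 of batch b in each group.

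Members, gene lists and tests were chosen with earlier results of these data known. Genes were named by a rule: up to 12 passing members with the most positive and 12 with the most negative tissue difference, any member past a sex, interaction or batch threshold, members whose passing probes disagree in sign, the 3 brightest and 3 dimmest, and up to 4 passing genes of each other translation list. Alternatives in background correction, normalization, filter, variance model, array weights, probe choice, batch, animal, run and left-out arrays were tried. Promoter windows are those of RefSeq for GRCm38.p6. Probe and protein sequences were not used here.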

Additional observations from a re-analysis of the deposited data

Results flagged for a closer look

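Within the groups of 6 arrays, a single array stood far from the other 5 for 13 of 204 sets of values (6.37%), where chance gives about 1 in 20. Male frontal cortex replicate 5 stood apart for 4 genes, which were Rps12 (low, 13.16, nearest 13.47), Rpl9 (high, 14.57, nearest 14.28), Rpl21 (high, 6.94, nearest 6.70) and Rpl10a (low, 12.07, nearest 12.35). Female cerebellum replicate 2 did so for 3 genes, which were Rpl35 (low, 12.42, nearest 12.61), Rpl24 (low, 10.55, nearest 10.87) and Rps29 (low, 14.12, nearest 14.28). Rpl19 was low in male frontal cortex replicate 6, at 9.71 with the nearest other array at 9.82. Rpl30 was high in female frontal cortex replicate 1, at 9.43 with the nearest other array at 9.27. Rps14 was low in female frontal cortex replicate 6, at 13.03 with the nearest other array at 13.14. Rpl27 was high in female cerebellum replicate 5, at 12.50 with the nearest other array at 12.35. Rps4l was high in male frontal cortex replicate 3, at 7.69 with the nearest other array at 7.15. Rps4l was high in male cerebellum replicate 2, at 7.97 with the nearest other array at 7.63. The values are log2 intensity.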

How the results depend on the processing

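The median member difference was negative in all 28 alternatives and in all 24 fits without 1 array. Apart from the shares given in the Results, the share of all named genes that passed was not counted in these fits. Their counts of genes therefore have no background beside them, and counts from fewer arrays are not comparable with the main counts. Scaling by the median alone moved the median member difference to -0.41, the mean level per array to -0.39 (from -0.15) and the counts of lower genes to 39 in females and 42 in males, with 1 higher in males. With array weights 5 genes were higher on average and 5 in males. Label batch a alone gave 13 lower genes (4 in females). Label batch b alone gave 5 higher, and 15 lower in males. Runs 1 to 4 alone, added after seeing the data and with 6 arrays each, gave 18, 8, 9 and 10 lower, and run 4 alone 1 higher. With the animal as replicate block, which follows the pairing of the tissues, 26 genes were lower and 3 higher, so no tissue count moved by over 1.5 times, while the run count fell to 12 from 23. Rpl23 reversed with the mean over its kept probes (-0.012, adjusted p = 0.863, limma), and the probes themselves disagree in sign.

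Leaving out each array in turn gave 25 to 29 lower and 3 to 5 higher genes, medians of -0.18 to -0.14, levels per array of -0.16 to -0.13, and 16 to 24 genes past the run test. In females it gave 13 to 19 lower and 2 to 3 higher, and in males 20 to 26 and 2 to 4. The 5 higher came without female cerebellum replicate 1. Sex differences in frontal cortex ran from 0 to 1 gene, the 1 being Rps4l without female frontal cortex replicate 5. Of 420 other checks of the 15 most changed genes, 400 kept sign and threshold and 19 lost the threshold. Of 28 alternatives for each gene, Rpl23 changed in 5, its reversal included. Rpl4, Rpl26 and Rpl36a lost the threshold in 3 each, Rpl39 and Rps4l in 2 each, and Rpl19 and Rps26 in 1 each. All 360 fits without 1 array kept both. The 15 genes were chosen for passing with the largest differences in the same arrays, so these counts are partly set by that choice. Interaction, cerebellar sex and label batch counts were 0 in every alternative run. The mean raw signal of the dimmest probe, that of Rpl3l, was 83.6, near the median signal of an array (69.3 to 75.2).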
